A study of Rattus norvegicus with 9 samples.

Results

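The S100 alarmins and their relatives were taken here as 6 genes found by symbol in the feature list of the deposited matrices: S100a8, S100a9, S100a4, S100a6, S100a10 and S100a11. All 6 were found, of 41801 genes listed and 19 genes of the S100 family listed. Their unique molecular identifiers (UMIs, one per captured transcript end) were counted in single cells of the rat proximal tibia, in 8 libraries and 110488 cells kept of 116711 barcodes.

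Cells came from male Sprague-Dawley rats, 6-8 weeks old, with a 3-mm circular osteotomy of the proximal tibia and a 4-mm full-thickness wound on the back of the foot of the same side, so every library, controls included, carries both injuries. The TO group had the osteotomy alone and gave the libraries TO 2d 0h, TO 2d 4h, TO 4d 4h and TO 4d 24h. The TOE group also received radial extracorporeal shock waves (rESWT) at the osteotomy on postoperative days 2 and 4, and gave TOE 2d 4h, TOE 2d 24h, TOE 4d 4h and TOE 4d 24h, named by day and by hours after the session. TO 2d 0h was taken before any session, and TO 2d 24h was not analysed here. Each condition is 1 library, so no condition has a replicate, no test between TO and TOE was run and every interval (95%) covers counting error only.

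S100 proteins are small calcium-binding proteins. S100a8 and S100a9 pair as calprotectin, which fills the cytoplasm of neutrophils, is released at sites of injury and signals through Tlr4 and Ager, and so is called an alarmin. S100a10 and S100a11 bind the annexins Anxa2 and Anxa1 at membranes, S100a4 binds non-muscle myosin (Myh9) in migrating cells, and S100a6 binds Cacybp and marks mesenchymal and proliferating cells.

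The 6 genes lie on chromosome 2 in the RefSeq annotation of GRCr8. S100a8 is the direct neighbour of S100a9, S100a4 and S100a6 lie in the same cluster with S100a5 between them, and S100a11 and S100a10 have the pseudogene Cks1l-ps1 between them. Promoters (250 bases before to 50 after the start, 5′ to 3′ on the gene's strand) had an entry for 4 members and are shown for the neutrophil member S100a9 beside relatives of the same chromosome. Capitals mark TATAAA or GGGCGG, which were searched on both strands.
S100a9, chr2:178490573-178490872, minus strand: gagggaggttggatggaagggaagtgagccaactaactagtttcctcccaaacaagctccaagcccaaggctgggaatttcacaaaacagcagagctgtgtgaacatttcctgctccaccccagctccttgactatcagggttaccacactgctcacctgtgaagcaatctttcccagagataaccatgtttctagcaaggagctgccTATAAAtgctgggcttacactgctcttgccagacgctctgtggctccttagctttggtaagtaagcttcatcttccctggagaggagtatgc
S100a4, chr2:178388279-178388578, plus strand: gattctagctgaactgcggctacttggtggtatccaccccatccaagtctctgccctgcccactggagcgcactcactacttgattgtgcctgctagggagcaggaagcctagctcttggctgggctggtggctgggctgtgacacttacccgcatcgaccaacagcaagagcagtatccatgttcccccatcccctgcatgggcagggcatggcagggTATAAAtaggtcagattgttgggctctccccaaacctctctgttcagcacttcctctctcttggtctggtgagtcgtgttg
S100a6, chr2:178398287-178398586, plus strand: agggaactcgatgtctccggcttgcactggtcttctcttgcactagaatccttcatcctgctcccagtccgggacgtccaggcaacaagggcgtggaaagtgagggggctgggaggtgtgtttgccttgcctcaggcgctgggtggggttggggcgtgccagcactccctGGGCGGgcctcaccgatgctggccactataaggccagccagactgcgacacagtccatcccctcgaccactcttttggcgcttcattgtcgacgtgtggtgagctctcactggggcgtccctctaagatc
S100a11, chr2:181874882-181875181, plus strand: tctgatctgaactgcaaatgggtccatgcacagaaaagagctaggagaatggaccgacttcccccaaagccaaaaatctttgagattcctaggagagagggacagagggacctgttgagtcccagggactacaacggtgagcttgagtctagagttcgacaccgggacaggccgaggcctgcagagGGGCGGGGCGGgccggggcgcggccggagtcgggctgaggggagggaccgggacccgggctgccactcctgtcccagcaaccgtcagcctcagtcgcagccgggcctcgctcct
TATAAA stood at -42 to -37 in S100a9 and at -31 to -26 in S100a4, and 14.2% of the 33469 rat promoters of the same length hold it. GGGCGG stood at -80 to -75 in S100a6 and in 2 overlapping copies at -64 to -54 in S100a11, and 33.1% of promoters hold it. The GC content was 50% in S100a9, 56.3% in S100a4, 61.3% in S100a6 and 63% in S100a11, against a median of 51.7% over all promoters, with 1, 5, 15 and 18 CpG dinucleotides. The motifs are a description of these letters, and no factor binding was measured.

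Library totals ran from 95954800 to 144146202 UMIs and the median per barcode from 4522 to 5668. Clustering without any S100 gene gave 29 clusters, of which 27 fell into 11 classes named by markers that hold no S100 gene. Markers were higher in the class than in all other cells for 10 of 10 B-cell, 10 of 11 neutrophil (not Ltf), 6 of 6 granulocyte-monocyte progenitor (GMP), 8 of 8 monocyte, 11 of 11 erythroid, 10 of 10 T/NK-cell, 14 of 14 mesenchymal and 8 of 8 endothelial markers, while the macrophage-like class had Marco at 0 and the dendritic-cell-like class had less Xcr1 than other cells and was also led by Epx and Prg3, which eosinophils carry. Clusters 1 and 20 stayed unnamed and held 5.59% of cells. Any pair of libraries shared 40 to 110 cell barcodes, 0.308-0.783% of the smaller library. TOE 4d 24h stood apart. It had the highest share of neutrophil-like cells (23.9%, against 6.32-15.2% elsewhere), the fewest erythroid-like cells (76, or 0.637%), and in its B-cell-like cells a summed erythroid marker level of 34.9 CPM against 411-1603 in the other libraries. The S100a8 of neutrophil-like and B-cell-like cells and the monocyte-like free-RNA value are given with and without it, other levels pooled over libraries include it, and the 4d 24h pair cannot be had without it.

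S100a8 and S100a9 together made up 2.76% of all UMIs, with the lowest share in TOE 2d 4h (1.83%) and the highest in TOE 4d 24h (6.59%). S100a9 was the most abundant gene in 8 of 8 libraries and S100a8 ranked between 2 and 5. The other members each took between 0.0286% and 0.121% of a library. Neutrophil-like cells held 69.2% of all S100a8 and 74.6% of all S100a9 UMIs, and GMP-like cells held 20.4% and 17.7%. In contrast, monocyte-like cells held most of S100a4 (62.1%), S100a6 (73.3%) and S100a10 (65.0%). S100a11 was split between neutrophil-like (38.5%) and monocyte-like cells (27.1%). Levels are in CPM, the usual scaling of a gene's UMIs to the total UMIs of the class in that library, so that 72301 CPM is 7.23% of a class's UMIs. Since UMIs come from transcript ends and are not scaled by length, the comparisons are of 1 gene between cells.

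**Figure D1:**
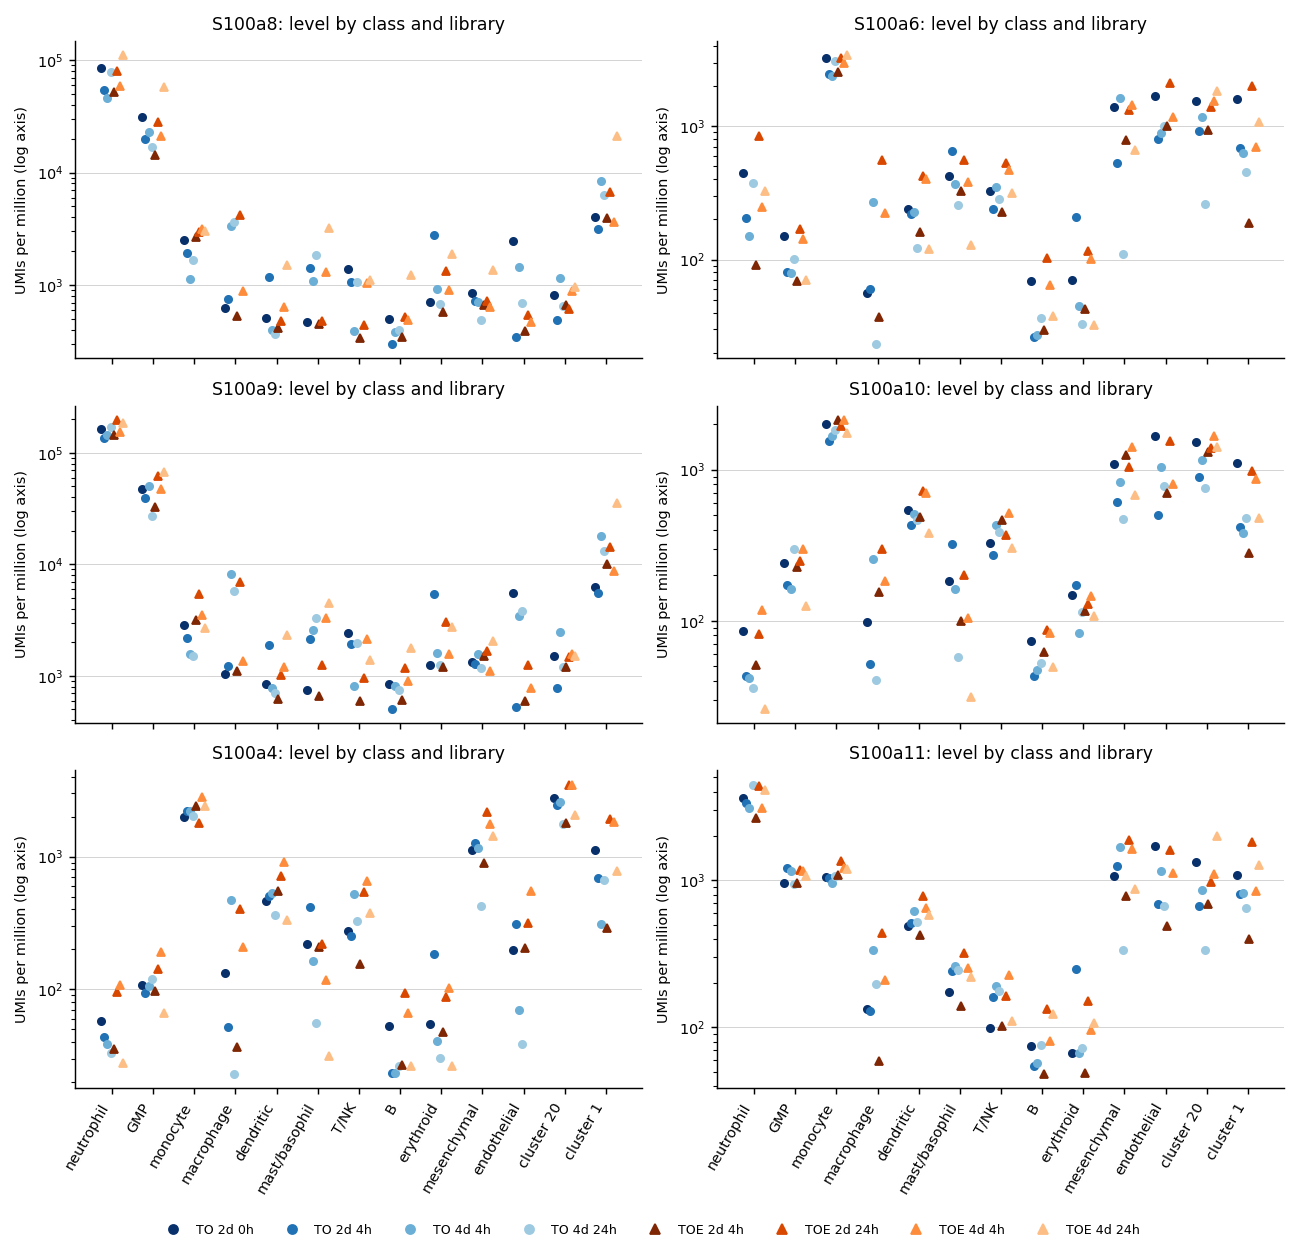
Level of each member (CPM, log axis) in 11 marker-named classes and 2 unnamed clusters, with 1 point per library of at least 20 cells; circles are TO and triangles TOE libraries. S100a8 and S100a9 stand highest in neutrophil-like cells, S100a6 in monocyte-like cells (2376-3422 CPM) and S100a11 in neutrophil-like cells (2649-4461 CPM).

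S100a8, one chain of calprotectin, had in neutrophil-like cells 85116 CPM in TO 2d 0h, 53895 in TO 2d 4h, 46470 in TO 4d 4h, 78690 in TO 4d 24h, 52381 in TOE 2d 4h, 80297 in TOE 2d 24h, 59169 in TOE 4d 4h and 110620 in TOE 4d 24h. The 4 libraries collected at 4 h were the 4 lowest. S100a9, the other chain, had 164721, 135450, 143632, 170802, 143929, 196991, 152418 and 183484 CPM in the same order, and again the 4 h libraries were the 4 lowest. Over all libraries the class carried 72301 CPM of S100a8 (453 UMIs per cell) and 161665 CPM of S100a9 (1012 UMIs per cell), which made them the second and the first gene of the class. Leaving out TOE 4d 24h gave 62873 CPM of S100a8.

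GMP-like cells, a class named by its markers, were next with 14343-57288 CPM of S100a8 and 27290-67256 CPM of S100a9. The 2 classes did not overlap in S100a9 between libraries, and they did overlap in S100a8 through the 57288 CPM of GMP-like cells in TOE 4d 24h. Within the class, cluster 14, led by the primary granule genes Prtn3, Elane, Ctsg and Mpo, had 1470 CPM of S100a8 and 2999 of S100a9. Cluster 10, led by defensins, had 46680 and 83619 CPM. It held 66.7% of the cells of the class, and its second-best marker list was that of neutrophils, so the class level mostly reflects this cluster. Low and high levels thus lay in different clusters of the class, and no order of the 2 clusters was tested.

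Neutrophil-like clusters differed less. Cluster 11, led by the secondary granule genes Lcn2 and Ngp, had 85888 CPM of S100a8 and 178351 of S100a9, cluster 22 (Nlrp12 and Stfa2) had 69943 and 151385, and cluster 23 (Prok2 and Retnlg) had 60373 and 151075. Cluster 22 drew 1287 of its 2105 cells from TOE 4d 24h, and by the median over libraries S100a8 was 79720 CPM in cluster 11, 51140 in cluster 22 and 62362 in cluster 23, so the order of the last 2 depends on how libraries are weighted. The exception was cluster 24, led by Il23a, Cxcl3 and Cxcl2, with 1691 CPM of S100a8 and 3823 of S100a9. Of its 394 cells, 316 came from TO 2d 0h, so it cannot be told apart from that library. S100a11 was higher in clusters 22 and 23 than in cluster 11, unlike S100a8, with 818 CPM in cluster 14, 1310 in cluster 10, 2716 in cluster 11, 4313 in cluster 23 and 4727 in cluster 22. S100a6 had 72.7 CPM in cluster 11, 469 in cluster 23 and 742 in cluster 22.

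**Figure D2:**
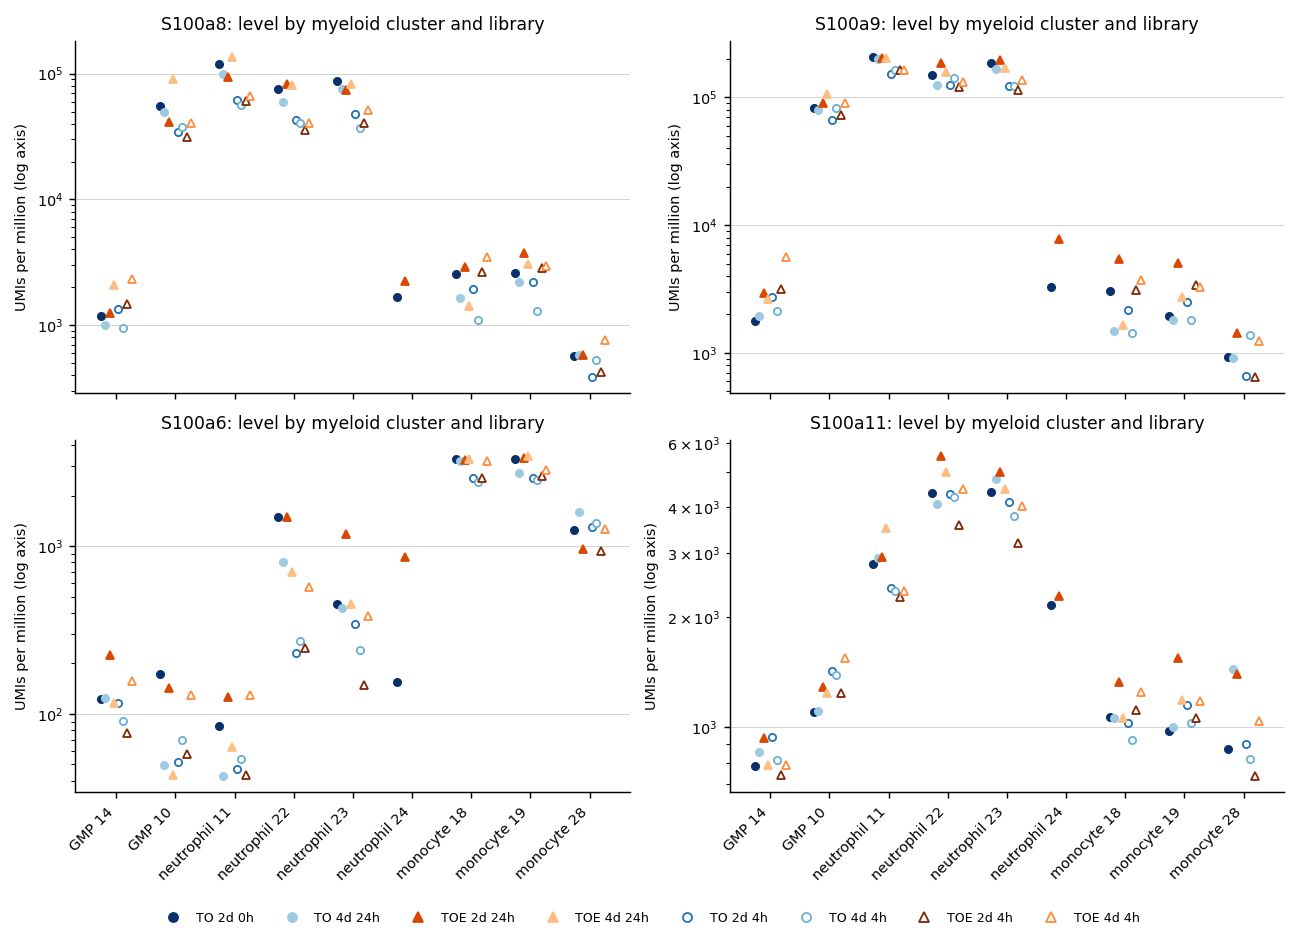
Level of S100a8, S100a9, S100a6 and S100a11 (CPM, log axis) in 2 GMP-like, 4 neutrophil-like and 3 monocyte-like clusters, with 1 point per library of at least 20 cells; filled points are libraries of 0 or 24 h and open points those of 4 h, circles TO and triangles TOE. In clusters 11, 22 and 23 every open S100a8 point lies below every filled one; the share of all genes for which this holds within clusters was not counted.

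Collection at 4 h against collection at 0 or 24 h was then compared over the 4 and 4 libraries, which mix both groups and both days, a split chosen after these values were seen. In neutrophil-like cells 4 of 6 members were lower in every 4 h library than in any other, against 5.03% of 8556 genes in that direction, and 0 members were higher, against 21.4%. S100a8 was 46470-59169 CPM at 4 h and 78690-110620 CPM otherwise, with medians 1.56-fold apart, and without TOE 4d 24h the latter ran from 78690 to 85116 CPM. S100a9 was 135450-152418 against 164721-196991 CPM. S100a11 was 2649-3348 against 3615-4461 CPM, and S100a6 was 91.3-246 against 326-853 CPM, with medians 2.30-fold apart. S100a4 and S100a10 overlapped.

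This held for S100a8 within clusters, at 55895-66066 against 93373-136339 CPM in cluster 11, 35337-42696 against 59585-82751 CPM in cluster 22 and 36998-51216 against 73508-86769 CPM in cluster 23. In the defensin-led GMP-like cluster 10, S100a8 was 31622-40783 CPM at 4 h and 41095-89991 CPM otherwise, so the ranges nearly met. The clusters use the same libraries and the same split, and the share of all genes without overlap was not counted within them. The other 3 members held in part. S100a9 and S100a11 were without overlap in clusters 11 and 23 but overlapped in clusters 22 and 10, and S100a6 was without overlap in clusters 22 and 23 but overlapped in cluster 11 (43.1-130 against 42.4-126 CPM) and in cluster 10. Neutrophil-like cells of the 4 h libraries also held more RNA, with means of 6247-8943 UMIs per cell against 4367-6344, which overlap. Counted per cell rather than as CPM, S100a8 ran from 337 to 529 UMIs at 4 h and from 344 to 629 otherwise, and 0 of 6 members were without overlap, where 0.853% of genes were lower at 4 h and 41.3% higher. S100a6 had 0.734-2.20 UMIs per cell at 4 h and 1.64-5.41 otherwise, where 3 of the 4 libraries at 4 h were below the lowest other one. The separation at 4 h was thus seen in CPM and not in UMIs per cell. With S100a8 and S100a9 left out of the totals 4 of 6 members were lower (8.01% of genes), and at clustering resolution 0.5 there were 2 of 6, S100a8 and S100a6 (4.71% of genes), since S100a9 (112880-133233 against 132672-165936 CPM) and S100a11 then overlapped. Of 7 neutrophil granule genes tested, 1 was lower and 1 higher at 4 h without overlap.

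The other classes showed less of it. In monocyte-like cells S100a6 alone was lower at 4 h (2376-2995 against 3108-3422 CPM), a count of 1 of 6 against 12.1% of genes, and 0 were higher against 11.7%. Within cluster 18, 61.5% of these cells, S100a6 was again lower at 4 h without overlap. S100a4 was higher there without overlap (2248-3051 against 1777-2015 CPM), and the other members overlapped. The share of all genes was not counted within this cluster. In GMP-like cells 0 of 6 members were lower (3.7% of genes) or higher (26.4%). The same count of 0 held in B-cell-like cells (11% of genes lower, 15.5% higher) and in mesenchymal-like cells (4.03% lower, 16.8% higher). The GMP-like sums mix clusters 10 and 14, which differ in S100a8. Cluster 14 made up from 21.3% (TOE 2d 24h) to 51.7% (TO 4d 24h) of the class. In cluster 10 alone S100a8 was lower at 4 h without overlap, as given above.

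A first question for so abundant a pair is where UMIs were cell expression and where they were free RNA that had leaked from neutrophils into other droplets. B-cell-like cells, which should lack calprotectin, had a UMI of S100a8 in 84.3% of cells at a median depth of 4347 UMIs and of S100a9 in 94.7%. After thinning every cell to 1000 UMIs the shares were 39.8% and 58.4%. Detection alone therefore does not mark a cell that makes these transcripts. The level was 3.23 UMIs of S100a8 per B-cell-like cell (509 CPM) and 5.66 of S100a9 (893 CPM), against 453 and 1012 per neutrophil-like cell, so neutrophil-like cells had 142-fold the CPM of S100a8 (90.1-197 by library).

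By library a B-cell-like cell had 3.38 UMIs of S100a8 in TO 2d 0h, 1.76 in TO 2d 4h, 2.58 in TO 4d 4h, 2.87 in TO 4d 24h, 2.21 in TOE 2d 4h, 2.87 in TOE 2d 24h, 2.78 in TOE 4d 4h and 7.98 in TOE 4d 24h. TOE 4d 24h, with the most neutrophil-like cells, was far above the rest, and without it the mean was 2.64. Across the 8 libraries the S100a8 UMIs per B-cell-like cell went with the mean over all cells (Pearson r = 0.974, exact permutation p = 0.0343, adjusted 0.0413; Spearman rho = 0.571, p = 0.151, adjusted 0.171), and S100a9 gave r = 0.884 (p = 0.0413, adjusted 0.0413) and rho = 0.548 (p = 0.171, adjusted 0.171). Without the 2 libraries farthest from the median, r was 0.404 and 0.446, so the relation rests on those libraries. In deeper B-cell-like cells the UMIs of S100a8 per cell were more, from 1.22 below 2000 UMIs to 7.95 above 10000 UMIs, while the level was 930 CPM in the former and 449 CPM in the latter.

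RNA of 1 free source keeps its genes in 1 ratio in every cell type of a library. So the UMIs of 8 neutrophil granule genes (Camp, Ltf, Ngp, Lcn2, Retnlg, Mmp8, Cd177 and Mmp9) in a class, multiplied by the ratio of S100a8 (or S100a9) to these genes over all cells of the same library, were used to set the UMIs that free RNA would bring. Observed over expected S100a8 was 0.835 in B-cell-like cells (0.719-1.13 by library), 1.11 in T/NK-cell-like, 1.01 in erythroid-like, 0.909 in dendritic-cell-like, 0.778 in mesenchymal-like and 0.751 in endothelial-like cells. In these classes S100a8 was thus at about the level that the granule genes set. The S100a8 UMIs of mesenchymal-like cells (732 CPM, or 26.4 per cell, at high depth) lie at this background and are not read as expression. Their CPM was nonetheless above that of B-cell-like cells in 8 of 8 libraries, with ratios of 1.44 for S100a8 (1.10-2.40) and 1.71 for S100a9 (1.15-2.53).

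The macrophage-like class (533 cells, median 1464 UMIs) lay above the expectation in some libraries, as given below. It need not hold all macrophages. Unnamed cluster 20 (1939 cells, median 14911 UMIs) also had macrophage markers as its best list, with 9 of 9 scored markers raised. Monocyte-like cells lay above the expectation in every library. Their S100a8 was 4.11 times the expectation (interval 4.10-4.12), at 3.78 in TO 2d 0h, 4.00 in TO 2d 4h, 2.41 in TO 4d 4h, 2.98 in TO 4d 24h, 6.44 in TOE 2d 4h, 4.42 in TOE 2d 24h, 6.03 in TOE 4d 4h and 1.84 in TOE 4d 24h. All 8 libraries stood above the highest B-cell-like value of 1.13. Their S100a9 was 2.36 times the expectation, lowest in TOE 4d 24h (1.06) and highest in TOE 2d 24h (3.41). With the ratio of B-cell-like cells in place of the whole library the S100a8 value was 4.67, with the B-cell-like UMIs per cell it was 13.6, without TOE 4d 24h it was 4.52, and with doublets kept it was 2.64.

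The S100a9 to S100a8 ratio of UMIs was 1.23 in monocyte-like cells, 1.75 in B-cell-like cells and 2.24 in neutrophil-like cells, and it was lower in monocyte-like than in B-cell-like cells in 8 of 8 libraries. Among the 1027 monocyte-like cells without a single granule UMI (8.87% of 11573), the mean was 7.78 UMIs of S100a8 (7.61-7.95) and 1482 CPM, against 1.70 UMIs and 456 CPM in 17455 such B-cell-like cells. A count of 10 or more S100a8 UMIs was found in 95.1% of neutrophil-like, 61.2% of monocyte-like and 5.25% of B-cell-like cells, at median depths of 5202, 13672 and 4347 UMIs. Monocyte-like over B-cell-like CPM of S100a8 was 4.86, above 1 in 8 of 8 libraries (2.46-7.71).

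Within the class, S100a8 was 4.49 times the expectation in cluster 18, led by Cd14, Vcan and Ccl2, and 3.63 times in cluster 19, led by Mnda, Ccr2 and Fcnb. Cluster 28, led by Adgre4, Treml4 and Fcgr3a, stood at 1.10, with 583 CPM of S100a8 against 2469 and 2691 CPM in the other two. S100a9 was 2.61, 1.98 and 0.878 times the expectation in the same order. Classical monocytes carry Ccr2, here a leading gene of cluster 19 but not of cluster 18, and the patrolling kind carries Fcgr3a, a leading gene of cluster 28. S100a8 thus stood above free RNA in clusters 18 and 19 and at free RNA in cluster 28.

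**Figure D3:**
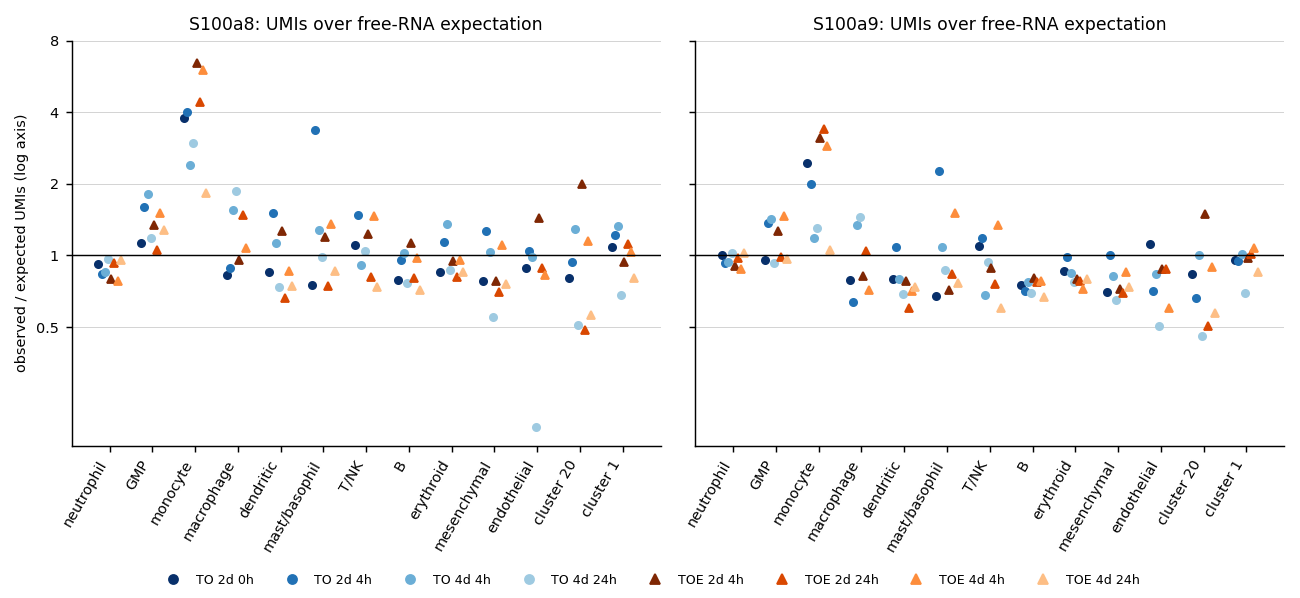
S100a8 (left) and S100a9 (right) UMIs over the number that the 8 neutrophil granule genes set for free RNA, by class and library of at least 20 cells (log axis, line at 1); circles are TO and triangles TOE libraries. Monocyte-like cells lie at 1.84-6.44 for S100a8, while B-cell-like cells lie at 0.719-1.13.

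S100a4, the myosin-binding member, was highest in cluster 20 (2968 CPM), monocyte-like (2267 CPM) and mesenchymal-like cells (1662 CPM), whose ranges over libraries overlapped. Cluster 20 was led by Apoe, Atp6v0d2, Spp1, Gpnmb and Trem2, a mixture of macrophage and osteoclast genes, and was left unnamed. Its best marker list was that of macrophages (9 of 9 scored markers raised), and the second was that of osteoclasts. The macrophage-like class had 193 CPM of S100a4, so it does not stand for cluster 20. In monocyte-like cells S100a4 was 1981, 2206, 2195, 2021, 2398, 1796, 2809 and 2391 CPM from TO 2d 0h to TOE 4d 24h in the order above, a narrow spread. T/NK-cell-like cells had 397 CPM and dendritic-cell-like cells 542 CPM. Neutrophil-like cells had 52.4 CPM, little above the 41.2 CPM of B-cell-like cells (ratio 1.27, 1.02-1.86 by library). Over the free-RNA expectation S100a4 was 39.1 in monocyte-like, 15.2 in mesenchymal-like and 9.71 in dendritic-cell-like cells against 0.936 in B-cell-like cells, so its UMIs in the first 3 classes were far more than granule genes set. The granule genes stand for neutrophil RNA and most S100a4 lay in monocyte-like cells. These values therefore cannot separate expression of S100a4 from free RNA of other cells.

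S100a6, which binds Cacybp, had its highest median in monocyte-like cells, at 3259, 2489, 2376, 3108, 2545, 3251, 2995 and 3422 CPM in the same order, with no overlap with cluster 20, the next by median, among libraries of at least 20 cells. Cluster 20 had 1313, endothelial-like cells 1447 and mesenchymal-like cells 1230 CPM. The Fcgr3a-led cluster 28 had 1290 CPM against 2976 in cluster 18. The endothelial-like value of TOE 4d 24h, from 16 cells, was 2639 CPM and lay within the monocyte-like range. Neutrophil-like cells had 317 CPM, 6.59-fold the level of B-cell-like cells (3.08-10.3 by library).

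S100a10, the partner of Anxa2, was 1553-2132 CPM in monocyte-like cells, 1360 in cluster 20, 1113 in endothelial-like and 992 in mesenchymal-like cells. It was the one member that neutrophil-like cells had at the level of B-cell-like cells, with 56.3 CPM against 62.4 CPM (ratio 0.903, 0.527-1.42 by library and above 1 in 2 of 8). Whether this level is free RNA or expression was not tested. GMP-like cells had 222 CPM. The share of cells with a UMI after thinning was 79.5% in monocyte-like, 5.54% in B-cell-like and 5.19% in neutrophil-like cells.

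S100a11, a partner of Anxa1, was the one relative with its highest level in neutrophil-like cells, at 3615, 3348, 3116, 4461, 2649, 4342, 3093 and 4137 CPM in the same order, without overlap with any other class. Mesenchymal-like cells had 1540, endothelial-like 1207, monocyte-like 1137 and GMP-like cells 1076 CPM. Over B-cell-like cells the ratio was 46.0 in neutrophil-like and 14.5 in monocyte-like cells. Neutrophil-like over monocyte-like cells gave 3.17 (2.44-4.17 by library).

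The likeness of members was measured as Pearson's r of log2(CPM + 1) over 102 class-by-library sums of at least 20 cells, which share libraries and free RNA and so carry no p. S100a8 and S100a9 had r = 0.988, S100a4 and S100a10 0.890, S100a4 and S100a6 0.802, S100a6 and S100a10 0.805, and S100a8 and S100a11 0.612. S100a8 and S100a4 had r = -0.227. Of 14730 other genes, the most like S100a8 were the granule genes Camp (0.948) and Pglyrp1 (0.927), then Ceacam4, Chi3l1 and Tf, and the most like S100a9 were Camp (0.966), Pglyrp1, Ceacam4, Tf and Brs3. S100a4 was most like Lgals1 (0.867), a galectin, then Fn1, Ahnak, Anxa4 and Vcan. S100a6 was most like Fn1 (0.841), Vim, Rarg, Plec and Niban2. S100a10 was most like Ahnak (0.885), the large scaffold it binds, with Lgals1, Mdfic and Pvr also among the 5 most like it. S100a11 was most like Anxa2 (0.858), Myof, Anxa1 (0.824), Actn1 and Il13ra1.

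Receptors and partners were taken as a list of 16 genes. The receptors Tlr4 and Ager were scarce in every class, at up to 11.7 CPM for Tlr4 (GMP-like) and up to 1.78 CPM for Ager (endothelial-like). Ly96, the co-receptor of Tlr4, was highest in macrophage-like cells (171 CPM), Cd14 in monocyte-like (337 CPM) and Cd33 in neutrophil-like cells (97.6 CPM). The integrin chains Itgam and Itgb2 were highest in neutrophil-like cells at 383 and 610 CPM. Anxa1 was 9893 CPM in neutrophil-like and 4501 CPM in GMP-like cells, and Anxa2 was 1145 CPM in monocyte-like and 1097 CPM in neutrophil-like cells. Neutrophil-like cells hence held Anxa2 but S100a10 only at the level of B-cell-like cells, and had 10.9 CPM of Ahnak against 585 CPM in monocyte-like cells. Of 10 other S100 genes, S100a16 (291 CPM) and S100a13 (112 CPM) were highest in endothelial-like cells, S100b reached 16.3 CPM in mesenchymal-like cells, and the rest stayed at or below 12.2 CPM.

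TOE was compared with TO in the 3 pairs of matched day and hour, 2d 4h, 4d 4h and 4d 24h, which addresses the question of the shock wave's effect. A gene counted as past 2-fold either way when the ratio of CPM passed 2 with at least 50 UMIs in the pair. The pairs have 1 library an arm, so library and treatment cannot be told apart.

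Calprotectin in neutrophil-like cells stayed within 2-fold in all 3 pairs. S100a8 was 53895 CPM in TO and 52381 in TOE at 2d 4h (log2 ratio -0.04), 46470 and 59169 at 4d 4h (0.35), and 78690 and 110620 at 4d 24h (0.49). S100a9 had log2 ratios of 0.09, 0.09 and 0.10. At 4d 24h the S100a8 log2 ratio was 0.45 in cluster 11, 0.44 in cluster 22 and 0.14 in cluster 23, and cluster 23 made up 85.7% of the TO and 14.2% of the TOE neutrophil-like cells. At 2d 4h 1 of 6 members was past 2-fold (12.2% of all genes), at 4d 4h 2 of 6 (2.65%), and at 4d 24h 0 of 6 (22.5%). The one at 2d 4h was S100a6, lower in TOE (206 and 91.3 CPM), with log2 ratios of -0.13 in cluster 11 and -1.20 in cluster 23. In TO and TOE of that pair cluster 23 made up 69.2% and 40.3% of neutrophil-like cells, cluster 11 27.6% and 44.6%, and cluster 22 2.41% and 14.1%. The part of this mix in the S100a6 difference was not tested. The members past 2-fold at 4d 4h were S100a4 (38.8 and 109 CPM, log2 1.48) and S100a10 (41.7 and 118 CPM, log2 1.50). In B-cell-like cells of that pair S100a4 was also higher in TOE, at 23.5 and 66.5 CPM (log2 1.50), as was S100a6 (log2 1.25), and monocyte-like cells were 10.9% of cells in TO and 18.5% in TOE. Whether monocyte RNA had a part in the S100a4 and S100a10 of neutrophil-like cells was not tested.

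Monocyte-like cells had the larger S100a8 difference. At 4d 4h S100a8 was 1136 CPM in TO and 3174 CPM in TOE, a ratio of 2.79 (2.75-2.84), and S100a9 was 1565 and 3478 CPM, a ratio of 2.22. These were the 2 of 6 members past 2-fold, against 3.96% of all genes. S100a8 was higher in each monocyte-like cluster of the pair, with log2 ratios of 1.66 in cluster 18, 1.17 in cluster 19 and 0.53 in cluster 28. The granule genes in the same cells had a median log2 ratio of -0.27, with 1 of 7 past 2-fold up and 1 down, and S100a8 in B-cell-like cells had 0.36. The part of free RNA in the difference was not tested. At 2d 4h the S100a8 log2 ratio was 0.47 (0 of 6 members past 2-fold, 6.26% of genes). At 4d 24h it was 0.85 (0 of 6, 17.7%), where the granule genes had a median of 1.35 with 7 of 7 up, and the monocyte-like cells were 79.5% cluster 18 in TO but 95.3% cluster 19 in TOE. S100a4, S100a6, S100a10 and S100a11 had log2 ratios between -0.07 and 0.46 in all 3 pairs.

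B-cell-like cells show how the background itself differed. S100a8 had log2 ratios of 0.21, 0.36 and 1.62 over the 3 pairs, and S100a9 had 0.25, 0.14 and 1.26. At 4d 24h the granule genes were past 2-fold up in 6 of 8 (median 1.42), and neutrophil-like cells were 15.2% of cells in TO and 23.9% in TOE. Members past 2-fold were 0 of 6 (9.56% of genes), 2 of 6 (2.17%; S100a4 and S100a6) and 2 of 6 (22.6%; S100a8 and S100a9). In macrophage-like cells, with 10-100 cells a library, members past 2-fold were 0 of 2 tested (9.28%), 3 of 6 (12.2%) and 2 of 2 (19.3%), each of them lower in TOE, with S100a8 at a log2 ratio of -1.91 at 4d 4h and -1.35 at 4d 24h. The granule genes were lower with it in these cells, with a median log2 ratio of -1.80 over 3 tested at 4d 4h (Camp, 634 and 181 CPM, and Mmp8, 460 and 17.4 CPM, past 2-fold) and -1.03 over 2 tested at 4d 24h. S100a8 over the free-RNA expectation was 1.55 in TO and 1.08 in TOE at 4d 4h, and 1.87 and 0.911 at 4d 24h, and the part of free RNA in these differences was not tested. The macrophage-like values of TOE 4d 24h rest on 10 cells with 22059 UMIs in all, under the 20 cells asked of a library in the figures.

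**Figure D4:**
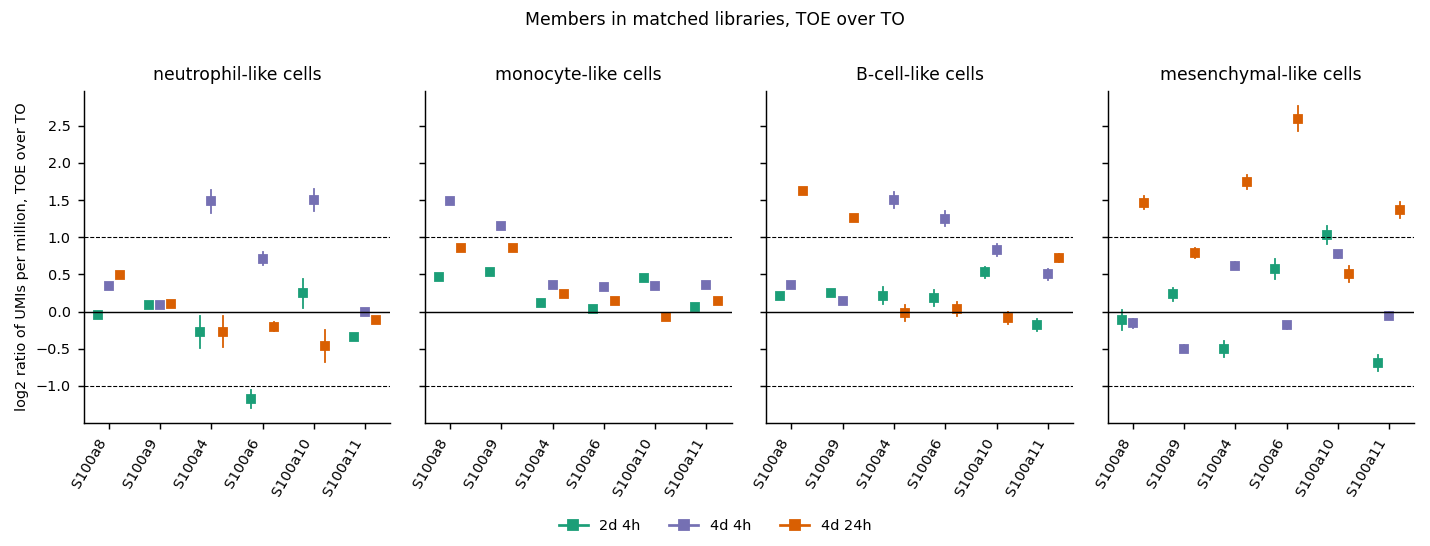
Log2 ratio of CPM, TOE over TO, for the 6 members in neutrophil-like, monocyte-like, B-cell-like and mesenchymal-like cells, coloured by pair; bars are 95% counting intervals and dashed lines mark 2-fold. The highest point is S100a6 in mesenchymal-like cells at 4d 24h (2.59).

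Mesenchymal-like cells, 60-498 a library, had 4 of 6 members past 2-fold at 4d 24h, all higher in TOE, against 13% of genes, with a median log2 ratio of 1.42 over the members and 0.23 over all genes. S100a6 was 111 CPM in TO and 670 CPM in TOE, a ratio of 6.03 (5.37-6.80), S100a4 was 425 and 1419 CPM, and S100a11 was 337 and 871 CPM. The fourth was S100a8 (489 and 1353 CPM, log2 1.47), whose level pooled over libraries lay at the free-RNA expectation. The granule genes in the same cells had a median log2 ratio of 0.90, with 3 of 6 tested past 2-fold up. S100a8 was also higher in TOE in B-cell-like cells of this pair, but at 4d 4h it was lower in mesenchymal-like cells (log2 -0.16) and higher in B-cell-like cells. The part of free RNA in the difference was not tested. S100a6 over all 8 libraries was 1400, 531, 1634, 111, 790, 1318, 1437 and 670 CPM from TO 2d 0h to TOE 4d 24h. TO 4d 24h was the lowest library for S100a4, S100a6, S100a10, S100a11 and S100a8. TOE 4d 24h lay inside the range of the other libraries for the first 4 of these and was the highest of 8 for S100a8 and S100a9.

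Marker levels of this cluster differed between libraries as well. They are class sums, which cannot tell a change of cells from a change of level in the same cells. In the mesenchymal-like cells of TO 4d 24h the osteoblast genes Bglap (58247 CPM) and Col1a1 (114027 CPM) were the highest of 8 libraries, and Col3a1 (1150 CPM), Postn (37.9 CPM), Prrx1 (156 CPM) and Thy1 (38.9 CPM), which mark fibroblast-like cells, were the lowest. In TOE 4d 24h these were 51320, 79684, 4606, 469, 295 and 196 CPM. Of the other listed markers in TO 4d 24h, Col1a2 (66043 CPM) and Dcn (1820 CPM) were also the highest and Pdgfrb (30.2 CPM) the lowest. Pdgfra, Cxcl12, Lepr, Lum and the osteoblast gene Runx2 (393 CPM) lay inside the range of the other libraries, so the list did not move as a whole. The summed level of the 14 mesenchymal markers was 243185 CPM in TO 4d 24h and 183944 CPM in TOE 4d 24h, against 61212-152244 CPM elsewhere. The part of cell make-up in the S100a6, S100a4 and S100a11 difference was not tested. At 2d 4h 1 of 6 members was past 2-fold (6.01% of genes), S100a10 at 611 and 1246 CPM, and at 4d 4h 0 of 6 (7.74%).

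**Figure D5:**
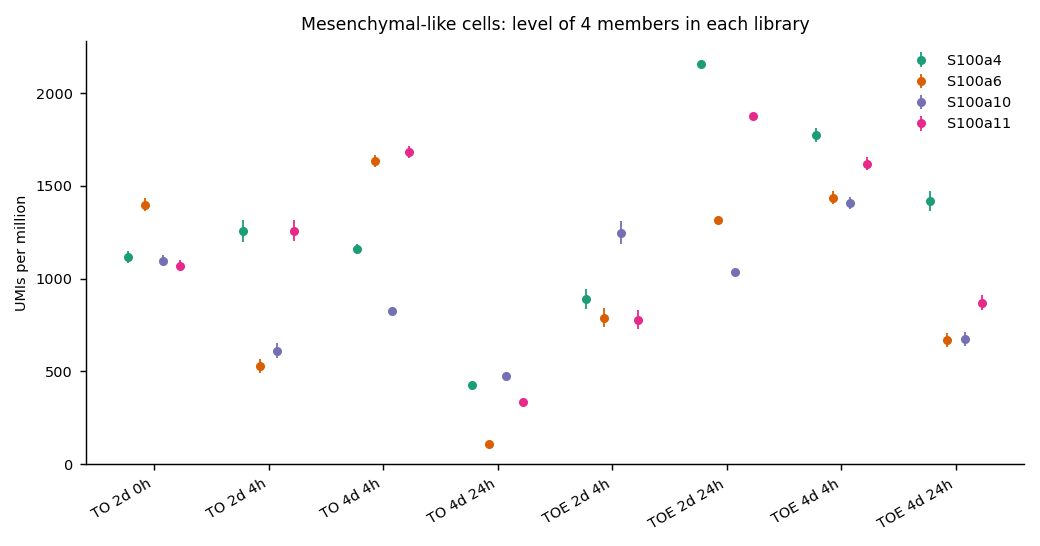
Level (CPM, with 95% counting intervals) of S100a4, S100a6, S100a10 and S100a11 in the mesenchymal-like cells of each library. TO 4d 24h is the lowest library for each of the 4 genes, with S100a6 at 111.

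Genes of the receptor and partner list past 2-fold can be read against the shares of all genes given above. In neutrophil-like cells they were 0 of 15 tested at 2d 4h, 1 up of 15 at 4d 4h (Ahnak, 7.75 and 17.9 CPM) and 2 down of 16 at 4d 24h (Itgb2, 830 and 319 CPM, and Ahnak, 10.2 and 2.84 CPM), against 12.2%, 2.65% and 22.5% of all genes. In monocyte-like cells they were 1 up of 15 (Cd33), 2 up of 15 (Cd33 and Cd36) and 4 down of 15 (Cd14, 306 and 33.3 CPM, with Itgam, Itgb2 and Ahnak), against 6.26%, 3.96% and 17.7% of all genes. The 4d 24h pair of monocyte-like cells is again the one whose clusters differ, and Cd14 is a leading gene of cluster 18. In mesenchymal-like cells the list had 0 of 9, 2 up of 12 and 1 down of 10, and in B-cell-like cells 1 up of 16, 2 up of 16, and 1 up and 2 down of 15. Of the other S100 genes, 1 of 4 was down in mesenchymal-like cells at 4d 4h, and in B-cell-like cells 1 of 5 was down at 2d 4h and 1 of 5 up at 4d 4h, with 0 in neutrophil-like and monocyte-like cells.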

How the data were processed

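Single-cell RNA of the rat osteotomy site was captured with the 10x Genomics Chromium system by the authors. The deposited matrices hold counts, whole UMIs per gene and barcode, not normalized, from the filtered output of Cell Ranger 9.0.0, which the submitters' processing notes name with Seurat, R 4.0.3 and the builds mRatBN7.2 and GRCh38 (roles not given). The lowest barcode held 500 UMIs, so barcodes had been filtered before deposit, and how many rats gave each library is not given in the sources used here beyond 9 rats for the design.

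From these counts, barcodes were dropped under 200 genes or over 20% mitochondrial UMIs, and those with a Scrublet score above 0.25 were removed as doublets (2.27-4.24% a library). Scanpy 1.11.5 (Python 3.11.15, leidenalg 0.10.2) scaled cells to 10000 UMIs, took 2000 variable genes without the 26 genes whose symbol starts with S100, and clustered on 30 components and 15 neighbours at resolution 1. The study names neutrophils by S100a8 and S100a9, and these classes are rebuilt without them, so they need not hold the same cells. UMIs were summed over a class and library and divided by its total. Intervals are exact Poisson for levels, exact conditional binomial for ratios and Clopper-Pearson for shares (scipy 1.17.1). UMIs of 1 cell are not replicates of a condition, and no test between conditions was run. Ratios needed 50 UMIs in the pair, with 0.5 added before logs, and the 4 h comparison 50 per library on average. Deeper classes have narrower counting intervals. The scripts' ratios, free-RNA values and hour comparison were tested on simulated counts.

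Members and lists were chosen with earlier results of these data known. Genes named are the 6 members, the lists of 10 other S100 genes, 16 receptors and partners and 8 granule genes, the cell type markers, the 5 genes most like each member (1 of them is not reported here), and leading genes of clusters. The comparison by hour and the alternatives on it were chosen after the values were seen. Alternatives were the cell filters, doublets, resolution, S100 genes in the clustering, totals without S100a8 and S100a9, and single libraries or clusters.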

Additional observations from a re-analysis of the deposited data

Results flagged for a closer look

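12 results were picked out because the TOE over TO log2 ratio of a member had opposite signs in 2 of the 3 pairs in which each counting interval left out 0, and each was given as the highest minus the lowest ratio. With 1 library an arm and pair the differences were not tested. Counting intervals of such deep sums are narrow, as for S100a8 in neutrophil-like cells at 2d 4h (-0.047 to -0.035). The share of all genes that meet the same rule was not counted, so the number 12 is not read as high or low.

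In neutrophil-like cells the difference was 0.53 for S100a8 (0.49 at 4d 24h, -0.04 at 2d 4h, the latter 0.021 as a median over cells and 0.0021 with a stricter cell filter, so that the signs no longer differ), 1.76 for S100a4 (1.48 at 4d 4h, -0.28 at 2d 4h), 1.88 for S100a6 (0.71 at 4d 4h, -1.17 at 2d 4h) and 1.97 for S100a10 (1.50 at 4d 4h, -0.47 at 4d 24h). In monocyte-like cells it was 0.53 for S100a10 (0.46 at 2d 4h, -0.07 at 4d 24h). B-cell-like cells gave 0.91 for S100a10 (0.83 at 4d 4h, -0.08 at 4d 24h) and 0.90 for S100a11 (0.72 at 4d 24h, -0.18 at 2d 4h).

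Mesenchymal-like cells gave 2.78 for S100a6 (2.59 at 4d 24h, -0.19 at 4d 4h), 2.24 for S100a4 (1.74 at 4d 24h, -0.50 at 2d 4h), 2.06 for S100a11 (1.37 at 4d 24h, -0.69 at 2d 4h), 1.63 for S100a8 (1.47 at 4d 24h, -0.16 at 4d 4h) and 1.29 for S100a9 (0.79 at 4d 24h, -0.50 at 4d 4h). In 5 of these 5 the highest ratio was at 4d 24h. The part of cell make-up and of free RNA in these differences was not tested.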

How the results depend on the processing

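Of 70 alternative values of 8 results, 10 stayed within the counting interval of the main value and 60 did not, and the cause was not tested. For the log2 ratios, 28 of 30 alternatives kept the sign. Each condition is 1 library with the replicate number 1, so there is no replicate to pair or leave out. The 3 pairs of TO and TOE matched by day and hour were compared one by one, and no test over the pairs was run.

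S100a8 in neutrophil-like cells (72301 CPM) was 62873 without TOE 4d 24h, 73402 with a stricter cell filter, 72818 with none, 66534 with doublets kept, 64463 and 70252 at resolutions 0.5 and 2, and 72538 with S100 genes in the clustering. S100a8 per B-cell-like cell (3.23 UMIs) was 7.70 in T/NK-cell-like and 11.8 in erythroid-like cells taken in its place, 2.64 without TOE 4d 24h, 3.30 with the stricter filter, 3.33 without a filter and 3.33 with doublets kept, 3.41 at resolution 2 and 3.30 with S100 genes. The monocyte-like value over free RNA (4.11) was 13.6 from B-cell-like UMIs per cell, 4.67 from their granule ratio, 4.52 without TOE 4d 24h, 4.18, 4.06 and 2.64 with the stricter filter, no filter and doublets kept, and 4.09 and 4.12 at resolutions 0.5 and 2.

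The S100a8 log2 ratio in neutrophil-like cells at 2d 4h (-0.04) was -0.029 with totals without S100a8 and S100a9, 0.021 as a median over cells, -0.24 and -0.027 in clusters 23 and 11, 0.0021 with the stricter filter, -0.0157 without a filter, -0.0156 with doublets kept, -0.11 and -0.17 at resolutions 0.5 and 2, and -0.026 with S100 genes. In the same order, at 4d 4h (0.35) it was 0.39, 0.33, 0.47 and 0.24, 0.35, then 0.44 with doublets kept, 0.28 and 0.33, and 0.36. At 4d 24h (0.49) it was 0.58, 0.56, 0.14 and 0.45, 0.50, 0.48 without a filter, 0.55 with doublets kept, and 0.55 and 0.54.

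S100a6 in mesenchymal-like cells (1230 CPM) was 1255 without TOE 4d 24h, 1313 without TO 4d 24h and 1276 with the stricter filter. S100a4 in monocyte-like cells (2267 CPM) was 2259 without TOE 4d 24h, 2341 and 2274 with the stricter and no filter, 2186 with doublets kept, 2288 at resolution 2 and 2276 with S100 genes. The count of members lower in every 4 h library (4) was 0 counted in UMIs per cell and 2 at resolution 0.5, and 4 under the other 6 alternatives.

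Depth limits single cells more than sums. A share of cells with a UMI depends on depth, on free RNA and on doublets that Scrublet missed, and some alternatives name clusters differently, so their classes hold other cells.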

Other observations

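Cluster 1, unnamed and led by Npy, Pla2g2a, Prg3 and Pf4 with a median of 801 UMIs a cell, had 7279 CPM of S100a8, 0.936 times the free-RNA expectation. Cluster 24 stood at 0.277 times it, below the other neutrophil-like clusters.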
